A study of Mus musculus with 20 samples.

Results

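Peaks of open chromatin, transcription factor binding and RNA polymerase II (RNA Pol II) were examined at 4 genes of fat cell function, Adipoq, Lpl, Pck1 and Angptl4, while 3T3-L1 cells turned from preadipocytes into adipocytes. The members were all deposited peaks that touch 1 of 4 windows of mouse genome build mm9: chr16:23100000-23220000 for Adipoq, chr8:71350000-71500000 for Lpl, chr2:172920000-173040000 for Pck1 and chr17:33850000-33970000 for Angptl4. These windows held 263 of the 284878 peaks in all 19 lists (0.0923%). Overlapping peaks were merged across lists, by at least 1 bp, which gave 55 merged regions in the windows and 77867 in the genome.

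The study used 3T3-L1, a mouse preadipocyte line that differentiates in culture, with 1 library per group. Cells kept in calf serum were induced 2 days after reaching confluence (day 0) with fetal bovine serum, 3-isobutyl-1-methylxanthine, insulin and dexamethasone. From day 2 they received fetal bovine serum with insulin, and afterwards serum without it. DNase I hypersensitive site sequencing (DHS-seq), which maps open chromatin through small fragments cut at both ends by DNase I, covered day 0 (labelled preadipocyte), 2 hours and 4 hours (early), day 1 and day 2 (intermediate) and day 6 (mature adipocyte). Chromatin immunoprecipitation sequencing (ChIP-seq) was done for PPARgamma on day 2 and day 6, for RNA Pol II and C/EBPdelta on day 0 and at 4 hours, and for C/EBPbeta at these 2 times, at 2 hours and on day 2. RXR, Stat5a and the glucocorticoid receptor (GR) were profiled at 4 hours only. All groups are the same cell line. The day 0 groups came before induction and the later ones followed the same induction. Peak lists cannot check the cell line label against marker expression.

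Adipoq encodes adiponectin, a hormone secreted by fat cells. Lpl encodes lipoprotein lipase, which releases fatty acids from circulating triglyceride, and Angptl4 encodes a secreted inhibitor of that lipase. Pck1 encodes the cytosolic phosphoenolpyruvate carboxykinase, which fat cells use to make the glycerol backbone of stored triglyceride. PPARgamma is the nuclear receptor that drives the adipocyte state and binds DNA together with RXR, while C/EBPbeta and C/EBPdelta act early after induction. GR is the receptor of dexamethasone, and Stat5a is activated by hormone and cytokine receptors.

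Each list gives the start and end of peaks, with no height, score or read count. The reads behind a peak, and so the depth of each library, are unknown. In these bulk samples, fewer cells with a peak and less signal per cell cannot be told apart. The lists ran from 2076 peaks (RXR, 4 hours) to 35389 (DHS, day 1). With 1 library per group, no difference between times or factors could be set against replicate spread, and none was tested. A region is called present or absent in a list only in the sense that a peak was or was not listed there. Intervals on shares are exact Clopper-Pearson 95% intervals and cover counting over regions only. They treat neighbouring regions of a window as independent, and the 4 windows were chosen. A genome value inside or outside an interval is therefore a description and no test.

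Of the 4 genes, 2 matched the RefSeq promoter table (GRCm38.p6), Adipoq and Pck1. The 250 bases before their annotated start, on the plus strand, are shown because PPARgamma peaks of day 6 gathered in the windows of both genes and C/EBPbeta peaks in only that of Adipoq. Capitals mark matches, on either strand, to a C/EBP-like motif (TTNNGNAA) or a cyclic AMP response element (TNACGTCA).
Adipoq, chr16:23146286-23146535: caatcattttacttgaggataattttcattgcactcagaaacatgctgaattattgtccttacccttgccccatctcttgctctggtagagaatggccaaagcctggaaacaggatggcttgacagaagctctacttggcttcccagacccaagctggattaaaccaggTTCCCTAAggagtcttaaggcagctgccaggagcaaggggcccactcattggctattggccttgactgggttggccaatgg
Pck1, chr2:173152823-173153072: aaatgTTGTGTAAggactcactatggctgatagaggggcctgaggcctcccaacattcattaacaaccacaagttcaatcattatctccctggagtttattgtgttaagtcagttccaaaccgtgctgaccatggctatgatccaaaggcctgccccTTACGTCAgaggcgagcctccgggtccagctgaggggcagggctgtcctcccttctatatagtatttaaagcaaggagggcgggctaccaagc
The C/EBP-like letters stood at -81 to -74 of Adipoq and at -245 to -238 of Pck1, counted from the start, and 36.8% of 32851 promoter stretches of this length held this motif. The response element letters stood at -93 to -86 of Pck1 and were in 2.52% of such stretches. No match to a PPARgamma and RXR direct repeat (AGGNCA, any 1 base, then AGGNCA again, in 0.338% of stretches) was in either stretch. Neither stretch held a match to a STAT motif (TTCNNNGAA, 7.02%) or to TGTTCT, 1 unit of the glucocorticoid receptor motif (16.1%). These coordinates are on another build than the peaks, so no peak was placed on them.

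The 4 windows differed widely in how much was listed in them. Lpl held 106 peaks in 21 merged regions and Adipoq 80 peaks in 15, and all 19 lists had a peak at Lpl and 17 at Adipoq. Angptl4 held 71 peaks in 15 regions, from 17 lists. Pck1 held 6 peaks in 4 regions, from 2 lists. Tiles of the same length laid along every chromosome give a scale for these counts: at least 106 peaks lay in 0.375% of 17613 other tiles of 150 kb, at least 80 in 0.790% and at least 71 in 1.44% of 22017 tiles of 120 kb, and at least 6 in 46.9%. The windows were placed around genes and the tiles were not, which was not corrected for. Of the 55 merged regions, 16 were in 1 list only (29.1%, against 37.3% of all merged regions of the genome), 19 were in no DHS list (34.5%, genome 41.3%) and 6 were in all 6 DHS lists (10.9%, genome 5.26%).

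**Figure D1:**
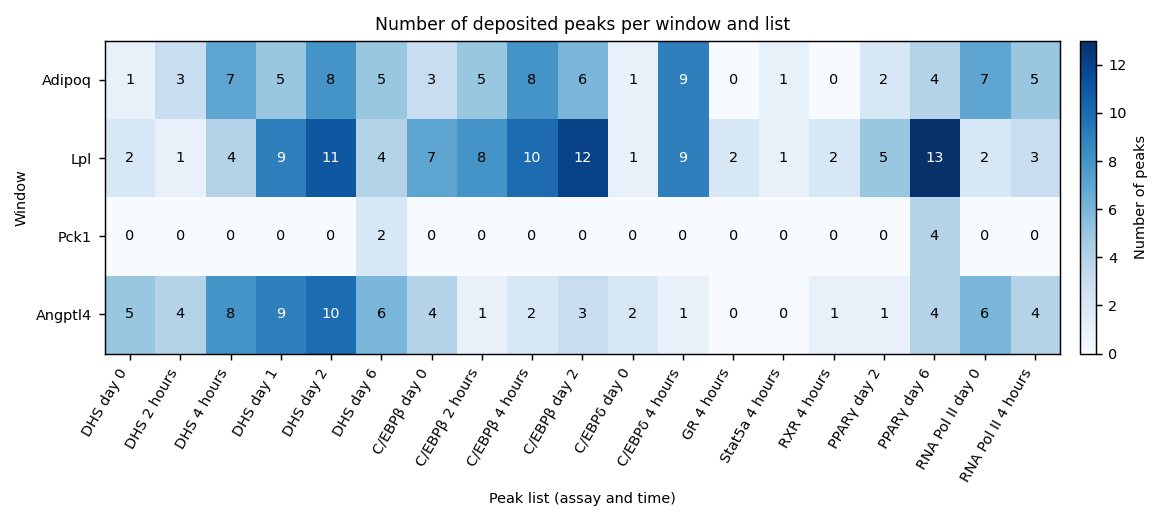
Number of deposited peaks in each window (rows) and peak list (columns, by assay and time), with the count printed in each cell. The Pck1 row is empty apart from DHS day 6 (2 peaks) and PPARgamma day 6 (4 peaks), while the Lpl row reaches 13 peaks for PPARgamma day 6.

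PPARgamma of day 6, followed by PPARgamma of day 2, was listed most often relative to the length of its list. The windows held 25 of 5493 PPARgamma peaks of day 6, or 45.5 per 10000 listed, and 8 of 3168 peaks of day 2, or 25.3 per 10000, against 9.23 per 10000 over all lists. Of the 55 regions, 25 (45.5%, interval 32.0 to 59.4) held PPARgamma on day 6, against 7.00% of all merged regions of the genome. On day 2 the share was 14.5% (6.50 to 26.7), against 4.03%, and for either day the genome value was 8.33%. Restricting each list to peaks at or above its own median width left 16 PPARgamma regions, and shortening lists to equal length by width left 13.

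**Figure D2:**
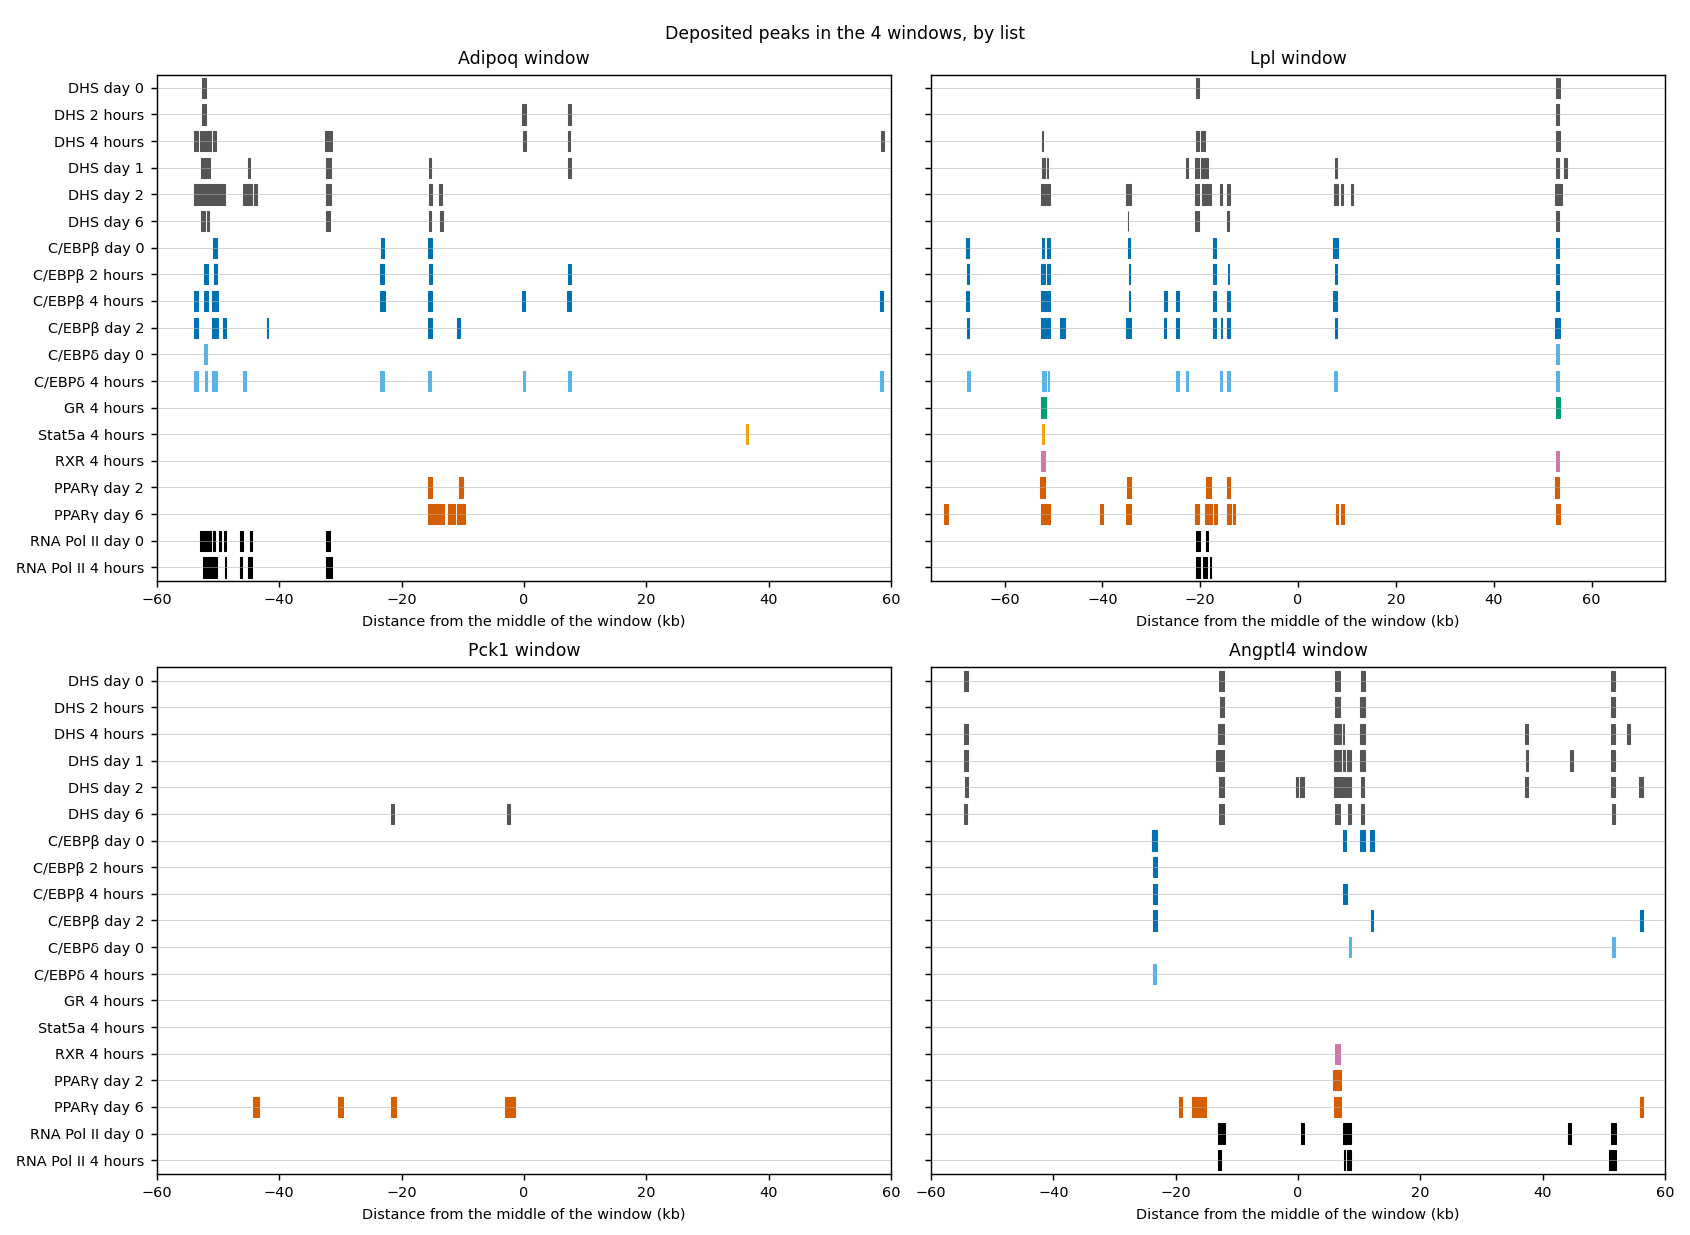
Positions of the deposited peaks in the Adipoq, Lpl, Pck1 and Angptl4 windows, with 1 row per list and the distance from the middle of the window in kb on the horizontal axis. PPARgamma peaks of day 6 (25 in all) form a cluster of 4 left of the middle of the Adipoq window and are spread over most of the Lpl window.

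At Adipoq, PPARgamma peaks formed 1 cluster of 4 neighbouring regions, chr16:23144362-23144998, chr16:23145086-23147007, chr16:23147584-23148795 and chr16:23149009-23150376. Gaps of 87, 576 and 213 bp separated them. All 4 had PPARgamma on day 6, and the outer 2 had it on day 2 already. No RNA Pol II peak lay closer to these 4 PPARgamma peaks than 16.55 kb, by the distance of their middles, and RNA Pol II was profiled only on day 0 and at 4 hours.

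The outer region at chr16:23144362-23144998 was bound by C/EBPbeta before induction and was listed as open later. C/EBPbeta peaks of 511 bp (day 0), 516 bp (2 hours), 542 bp (4 hours) and 595 bp (day 2) lay there, with C/EBPdelta at 4 hours (492 bp). No DHS peak was listed there on day 0, at 2 hours or at 4 hours. DHS peaks of 264 bp (day 1), 484 bp (day 2) and 457 bp (day 6) followed, along with PPARgamma peaks of 625 bp (day 2) and 631 bp (day 6). The middles of all 10 peaks fell within 75.5 bp. In time order, then, C/EBPbeta was in the lists first, open chromatin from day 1 and PPARgamma from day 2, the first day on which it was profiled.

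The other Adipoq regions with PPARgamma held fewer lists. The second, chr16:23145086-23147007, carried a PPARgamma peak of 1922 bp on day 6, a width reached by 0.601% of that list, and DHS peaks on day 2 (521 bp) and day 6 (610 bp). The third carried PPARgamma of day 6 alone (1212 bp). The fourth carried PPARgamma on day 2 (730 bp) and day 6 (1368 bp) and C/EBPbeta on day 2 (413 bp), with no DHS peak at any time. Neither GR nor RXR had a peak anywhere in the window, and Stat5a had 1, at chr16:23196221-23196684, where no other list had any.

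The widest Adipoq region, chr16:23106889-23111349, held 25 peaks of 14 lists, none of them PPARgamma. It was in all 6 DHS lists. Its DHS peaks measured 647 bp on day 0, 564 bp at 2 hours, 1772 and 410 bp at 4 hours, 1521 bp on day 1, 2964 and 1320 bp on day 2, and 591 and 335 bp on day 6. The day 2 peak of 2964 bp was among the widest 0.139% of its list, and this peak chains several narrower ones into the merged region. Both RNA Pol II lists had peaks there, as at chr16:23113612-23115596 and chr16:23127521-23128576. In the GRCm38.p6 annotation, Adipoq lies between Rfc4 and St6gal1, with Eif4a2 beyond Rfc4. Which gene a peak belongs to was not determined, since no mm9 annotation was used here.

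Of the 15 Adipoq regions, 5 were in the DHS list of 4 hours and not in that of day 0 (27.7% of all merged regions in the genome). Of these, chr16:23159644-23160275 and chr16:23167106-23167654 were open by 2 hours and had C/EBPbeta and C/EBPdelta at 4 hours. The first was in no DHS list from day 1 on, and the other was last listed on day 1. C/EBPdelta of 4 hours was listed 9 times in the window, a number reached by 0.341% of other 120 kb tiles. The region chr16:23136494-23137230 held C/EBPbeta on day 0, at 2 hours and at 4 hours and C/EBPdelta at 4 hours, and was in no DHS list.

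At Lpl, 13 of 21 merged regions held PPARgamma on day 6 and 5 of these on day 2 as well. Only 1 of 17613 other tiles of 150 kb held as many as 13 PPARgamma peaks of day 6 (0.00568%), on chromosome 3 from 10200001 to 10350000. C/EBPbeta of day 2 was listed 12 times at Lpl, and 0.0795% of other tiles held at least 12 of its peaks. Of the 13 PPARgamma regions, 7 held C/EBPbeta at an earlier time, against 45.0% of PPARgamma regions in the genome. Another 2 held RNA Pol II in place of C/EBPbeta, 1 held DHS of day 2 as its only other list, and 3 held nothing else (416, 508 and 812 bp wide).

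The region at chr8:71372248-71373579 held all 5 factors profiled at 4 hours and both PPARgamma lists. Peaks at 4 hours measured 1022 bp for C/EBPbeta, 915 bp for GR, 779 bp for C/EBPdelta, 661 bp for RXR and 560 bp for Stat5a. C/EBPbeta was listed at each of its 4 times, with a width of 533 bp on day 0 and 852 bp at 2 hours. DHS peaks appeared at 4 hours (350 bp), on day 1 (593 bp) and on day 2 (1178 bp), and none was listed on day 0, at 2 hours or on day 6. PPARgamma measured 1042 bp on day 2 and 1017 bp on day 6. PPARgamma was thus listed on day 6 at a place where the DHS list of that day had no peak. Beside it, after 52 bp, chr8:71373632-71374353 held C/EBPbeta at all 4 times, C/EBPdelta at 4 hours and PPARgamma on day 6, with DHS on day 1 (150 bp, the shortest width in that list) and day 2 (687 bp).

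The region in most lists lay at the far side of the window, chr8:71477560-71479020, with a peak in 16 of 19 lists. It was in all 6 DHS lists, with widths of 820 bp (day 0), 701 bp (2 hours), 856 bp (4 hours), 716 bp (day 1), 1461 bp (day 2) and 454 bp (day 6). C/EBPbeta was listed there at all 4 times and C/EBPdelta at both of its times. GR (707 bp) and RXR (665 bp) were listed at 4 hours, and PPARgamma on day 2 (836 bp) and day 6 (832 bp). The missing lists were Stat5a and both RNA Pol II lists, and the nearest RNA Pol II peak was 71.17 kb away. It was the only one of the 25 PPARgamma regions in both C/EBPdelta lists.

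**Figure D3:**
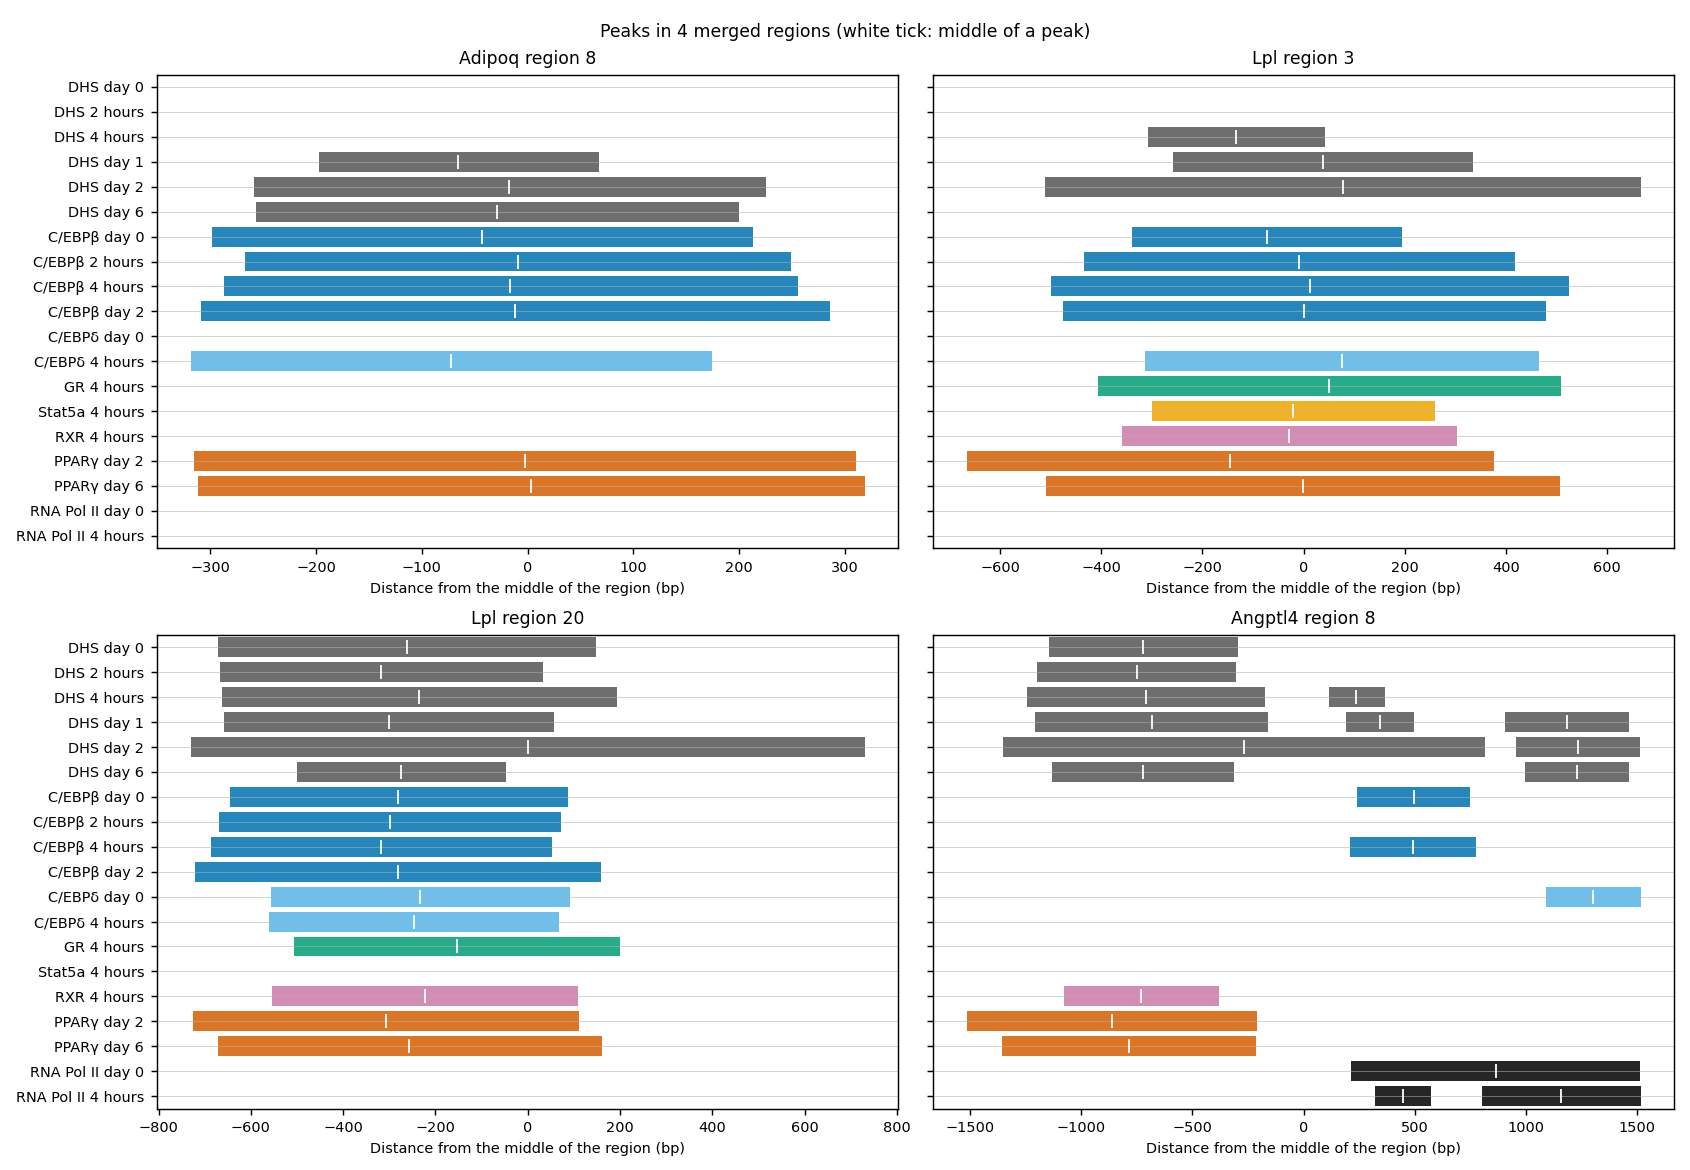
Extent of every peak in Adipoq region 8 (chr16, 10 lists), Lpl region 3 (chr8, 13 lists), Lpl region 20 (chr8, 16 lists) and Angptl4 region 8 (chr17, 14 lists), in bp from the middle of the merged region, with regions numbered along their window and a white tick at the middle of each peak. Peak middles fall together in the Adipoq region and in Lpl region 3 (within 75.5 and 222 bp), whereas the Angptl4 region splits into a part with PPARgamma and RXR and a part with RNA Pol II.

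Both Lpl regions with RNA Pol II also held PPARgamma. The first, chr8:71403850-71404853, was in every DHS list except that of 2 hours (758 bp on day 0, 669 bp at 4 hours, 746 bp on day 1, 944 bp on day 2 and 794 bp on day 6). RNA Pol II peaks measured 751 bp on day 0 and 689 bp at 4 hours, and PPARgamma was listed on day 6 (850 bp). The second, chr8:71405119-71407374, lay 265 bp further on and held RNA Pol II on day 0 (500 bp) and at 4 hours (815 and 257 bp). It was open from 4 hours to day 2 and held PPARgamma on both days (1084 and 1331 bp). Its DHS peak of 4 hours overlapped neither PPARgamma peak. Neither region held C/EBPbeta or C/EBPdelta at any time. Lpl lies between Ints10 and Slc18a1 in the GRCm38.p6 annotation.

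A further 4 Lpl regions combined PPARgamma with C/EBPbeta in distinct ways. At chr8:71389784-71390817, C/EBPbeta was listed with widths of 423, 262, 251 and 1007 bp on day 0, at 2 hours, at 4 hours and on day 2, and PPARgamma on day 2 (837 bp) and day 6 (903 bp). It entered the DHS lists on day 2 (891 bp) and was still there on day 6, with a peak of 150 bp, the shortest in that list. At chr8:71410454-71411251, C/EBPbeta was absent on day 0 and present from 2 hours (397 bp), DHS was listed on day 2 and day 6, and PPARgamma on both days. At chr8:71407549-71408455, C/EBPbeta of all 4 times met PPARgamma of day 6 with no DHS peak at any time. The region chr8:71432130-71433123 held C/EBPbeta at all 4 times, from 986 bp on day 0 to 491 bp on day 2, DHS on day 1 and day 2, and PPARgamma of day 6 (411 bp). Close to it, chr8:71433801-71434332 held DHS of day 2 and PPARgamma of day 6 without C/EBPbeta.

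Open chromatin at Lpl was listed most often on day 2. Merged regions with a DHS peak numbered 2 on day 0, 1 at 2 hours, 4 at 4 hours, 8 on day 1, 11 on day 2 and 4 on day 6. At least 11 DHS peaks of day 2 lay in 0.454% of other 150 kb tiles, against 13.9% for the 2 peaks of day 0. C/EBPbeta regions numbered 7, 8, 10 and 12 on day 0, at 2 hours, at 4 hours and on day 2, and 7 regions held it at all 4 times. The 2 regions with C/EBPbeta on day 2 and not before were chr8:71376441-71377286 and chr8:71409031-71409472, and neither held PPARgamma.

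Pck1 was the window with the fewest peaks, and all 6 were of day 6. PPARgamma was listed 4 times, at chr2:172935707-172936762 (1056 bp), chr2:172949572-172950466 (895 bp), chr2:172958213-172959013 (801 bp) and chr2:172976941-172978573 (1633 bp). The last was among the widest 1.47% of its list. DHS peaks of day 6 accompanied the third (464 bp) and the fourth (553 bp). No C/EBPbeta, C/EBPdelta, GR, Stat5a, RXR, RNA Pol II or PPARgamma day 2 peak was listed in the window, nor any DHS peak before day 6.

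A PPARgamma peak of day 6 lay in 15.4% of 22016 other tiles of 120 kb, and 0.913% held at least 4. The nearest RNA Pol II peak of day 0 or 4 hours was 88.72 to 124.51 kb from the PPARgamma peaks, against a median of 28.65 kb for all PPARgamma peaks of day 6. Pck1 lies between Ctcfl and Zbp1 in the GRCm38.p6 annotation. RNA Pol II was not profiled after 4 hours, so the lists do not show whether it was at Pck1 on day 6.

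Angptl4 held the most DHS peaks of the 4 windows before induction. Of its 15 regions, 5 were in the DHS list of day 0 and 4 were in all 6 DHS lists, chr17:33896564-33897989, chr17:33915639-33918668, chr17:33920105-33920950 and chr17:33960859-33961962. The remaining day 0 region, chr17:33855390-33855985, was in all but the 2 hours list, held no other factor, and had widths of 467 to 561 bp. At least 5 DHS peaks of day 0 lay in 0.845% of other 120 kb tiles. In the GRCm38.p6 annotation, Angptl4 lies between Rab11b and Kank3, with Rps28 and Ndufa7 beyond Kank3.

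PPARgamma and RXR met at 1 Angptl4 region, chr17:33915639-33918668, which held 20 peaks of 14 lists and consists of 2 parts joined by a DHS peak of day 2 (2165 bp). The first part was open at every time, with DHS peaks of 851 bp (day 0), 894 bp (2 hours), 1067 bp (4 hours), 1049 bp (day 1) and 817 bp (day 6). RXR was listed there at 4 hours (chr17:33916076-33916770), inside the later PPARgamma peaks of day 2 (1307 bp) and day 6 (1141 bp). The other part held RNA Pol II on day 0 (1299 bp) and at 4 hours (251 and 713 bp), C/EBPbeta on day 0 (508 bp) and at 4 hours (568 bp), and C/EBPdelta on day 0 (426 bp). It also held DHS peaks at 4 hours (251 bp), on day 1 (304 and 557 bp), on day 2 (561 bp) and on day 6 (466 bp). None was listed in that part on day 0 or at 2 hours. The C/EBPbeta and PPARgamma peaks of this region did not overlap each other, and the middles of C/EBPbeta of 4 hours and PPARgamma of day 6 lay 1277.5 bp apart.

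The other PPARgamma regions at Angptl4 were of day 6 only. The peaks at chr17:33890530-33891088 (559 bp) and chr17:33892594-33894862 (2269 bp, among the widest 0.218% of the list) were in no other list. At chr17:33965760-33966457, PPARgamma of day 6 (616 bp) lay with DHS (570 bp) and C/EBPbeta (493 bp) of day 2. C/EBPbeta was listed in 4 Angptl4 regions on day 0, 1 at 2 hours, 2 at 4 hours and 3 on day 2, and 8.06%, 38.8%, 30.6% and 14.8% of other 120 kb tiles held at least as many of its peaks. The single region with all 4 C/EBPbeta lists, chr17:33886155-33886970, was in no DHS list and held no PPARgamma. At chr17:33920105-33920950, open at all 6 times, C/EBPbeta was listed on day 0 (672 bp) and at no later time.

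Across the 4 windows, the 25 PPARgamma regions fell into groups by what had been there before. All 8 PPARgamma regions of day 2 were listed again on day 6 (interval 63.1 to 100%), against 67.1% of 3139 in the genome, and the other 17 were of day 6 alone. An earlier C/EBPbeta peak was in 9 of 25 (36.0%, 18.0 to 57.5), against 45.0% in the genome, and 1 of the 9 is the Angptl4 region in which the peaks of these factors lie apart. It was in 6 of the 8 regions of both days (genome 58.8%) and in 3 of the 17 of day 6 alone (genome 33.8%). The share of day 6 regions already listed on day 2 was 32.0% (genome 38.6%), and 10 of the 25 held C/EBPbeta of day 2 (40.0%, genome 50.1%). In each of these shares the genome value lay within the exact interval of the windows. With peaks at or above the median width only, 3 regions had an earlier C/EBPbeta peak, and with lists of equal length 2.

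Open chromatin at the PPARgamma sites was listed most often on day 2, as it was at the PPARgamma sites of day 6 in the genome. Of the 25 regions with PPARgamma on day 6, the DHS list of day 0 held 3 (genome 12.5%), that of 2 hours 2 (genome 15.2%), that of 4 hours 5 (genome 33.3%), that of day 1 8 (genome 43.3%), that of day 2 13 (genome 57.0%) and that of day 6 9 (genome 32.1%). No DHS list held 10 of them (40.0%, 21.1 to 61.3), and the genome value of 35.8% lay within that interval. The 4 hours count includes chr8:71405119-71407374, where the DHS peak of 4 hours did not overlap the PPARgamma peaks. Of the 25, 8 were in no other list of any kind (32.0%, genome 23.0%): 1 at Adipoq, 3 at Lpl, 2 at Pck1 and 2 at Angptl4. The DHS list of day 2 held 7 of the 8 regions of both days (87.5%, genome 80.8%) and 6 of the 17 of day 6 alone (35.3%, genome 42.1%).

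**Figure D4:**
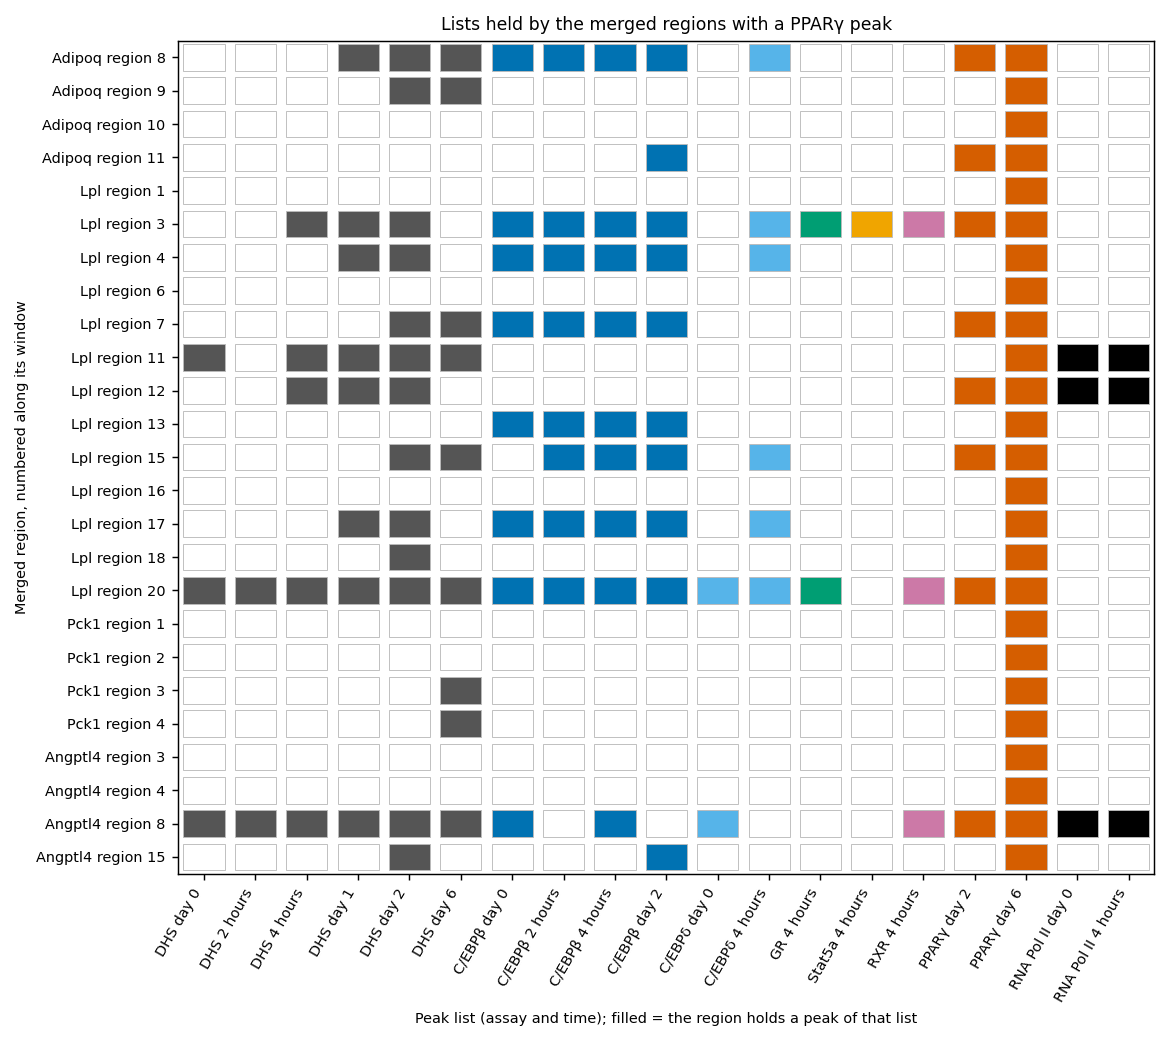
The 25 merged regions with a PPARgamma peak (rows, numbered along each window) and the 19 lists (columns), where a filled cell means that the region holds a peak of that list. All 25 hold PPARgamma of day 6 and 8 hold PPARgamma of day 2, and the 4 Pck1 rows have no filled cell before day 6.

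RXR of 4 hours was listed in 3 regions of the windows (5.45%, genome 2.63%), 2 at Lpl and 1 at Angptl4, and PPARgamma followed on day 2 and day 6 at all 3. In the genome, 27.8% of 2050 RXR regions held PPARgamma later, and the interval on 3 of 3 reaches from 29.2 to 100%. The middles of the RXR and the PPARgamma day 6 peaks lay 27 to 56 bp apart at these sites, with a median of 33.5 bp, against 76 bp in the genome. GR was in 2 regions (3.64%, genome 5.21%), the same 2 Lpl regions as RXR. Stat5a was in 2 regions (3.64%, genome 8.87%), 1 at Lpl and 1 at Adipoq. Regions with 3 or more of the 5 factors of 4 hours numbered 2 of the 23 with any of them (8.70%, genome 15.9%), again these 2 Lpl regions.

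C/EBPdelta was in 4 regions on day 0 (7.27%, genome 3.26%) and 18 at 4 hours (32.7%, genome 23.0%). Of the 18 regions with C/EBPdelta at 4 hours, 15 held C/EBPbeta of that time (83.3%, 58.6 to 96.4), close to the 84.0% of the genome, and the middles of their peaks lay a median of 25.75 bp apart (genome 39.5 bp). C/EBPbeta was in 14, 13, 19 and 20 regions on day 0, at 2 hours, at 4 hours and on day 2, or 25.5%, 23.6%, 34.5% and 36.4% of regions, against 25.9%, 24.9%, 37.8% and 27.1% in the genome. Of the 26 regions with C/EBPbeta at any time, 10 held it at all 4 (38.5%, 20.2 to 59.4), against 22.8%. C/EBPbeta of day 2 had no earlier peak in 5 of its 20 regions (25.0%, genome 23.2%). The DHS list of the same day held 4 of the 14 C/EBPbeta regions of day 0 (28.6%, genome 16.5%) and 11 of the 20 of day 2 (genome 42.6%). At chr16:23106889-23111349 and chr17:33915639-33918668, counted among the 4 of day 0, the C/EBPbeta and DHS peaks of day 0 did not overlap each other. The genome share likewise counts merged regions, whether or not the peaks in them overlap. The 4 hours DHS list held 8 of the 19 C/EBPbeta regions of that time (42.1%, genome 45.9%). By window these were 5 of 7 at Adipoq, 2 of 10 at Lpl and 1 of 2 at Angptl4, with none to count at Pck1.

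Relative to the genome, the windows held more regions of open chromatin on day 2 and day 6. Merged regions with a DHS peak numbered 8 on day 0, 8 at 2 hours, 17 at 4 hours, 20 on day 1, 27 on day 2 and 15 on day 6. As shares of the 55 regions these were 14.5%, 14.5%, 30.9%, 36.4%, 49.1% (35.4 to 62.9) and 27.3% (16.1 to 41.0). The genome values were 12.5%, 11.3%, 39.4%, 43.5%, 30.9% and 14.7%. The genome value lay below the interval on day 2 and day 6 and within it at the other times. By window, the day 2 regions were 7 at Adipoq, 11 at Lpl, 0 at Pck1 and 9 at Angptl4. Those of day 6 were 4, 4, 2 and 5. Per 10000 listed DHS peaks, the windows held 8.01 on day 0, 8.83 at 2 hours, 5.98 at 4 hours and 6.50 on day 1. They held 11.6 on day 2 and 14.2 on day 6, against 9.23 over all 19 lists. The lists differed in length, from 9055 peaks at 2 hours to 35389 on day 1, and that of day 2 held 25097. The part of list length in these counts was not tested.

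**Figure D5:**
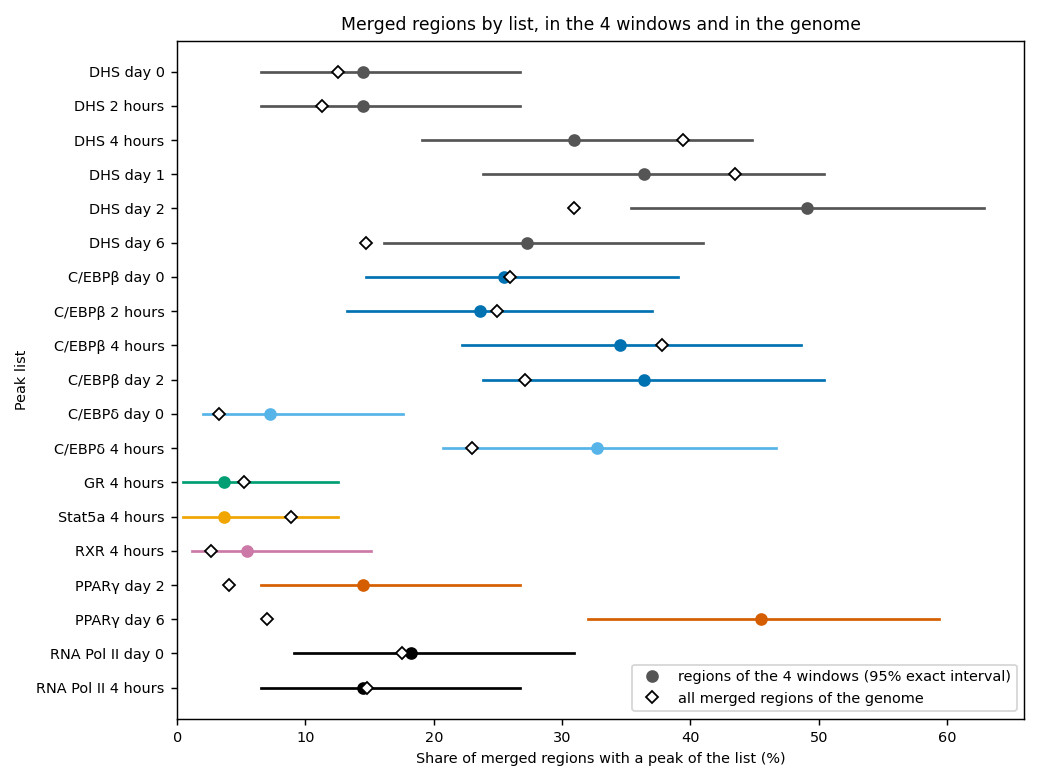
Share of merged regions with a peak of each list, in percent, for the 55 regions of the 4 windows (filled circles with exact 95% intervals) and for all 77867 merged regions of the genome (open diamonds). The diamonds lie outside the intervals for PPARgamma of day 2 and day 6 and for DHS of day 2 and day 6, and within them for the other 15 lists.

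Some regions entered the DHS lists early and others late. By 4 hours, 9 regions were in the DHS list that had not been there on day 0 (16.4%, genome 27.7%), 5 at Adipoq, 2 at Lpl and 2 at Angptl4, and 0 were lost (genome 0.765%). Of the 17 regions open at 4 hours, 8 were absent on day 6 (47.1%, genome 67.3%). Of the 27 regions open on day 2, 7 were in no other DHS list (25.9%, genome 16.0%). Of the 15 regions open on day 6, 7 had not been open on day 0 (46.7%, genome 38.6%) and 6 were in neither the day 0 nor the 4 hours list (40.0%, 16.3 to 67.7), against 11.3% in the genome. These 6 were 2 regions each at Adipoq, Lpl and Pck1, and all 6 held PPARgamma on day 6 (interval 54.1 to 100%), against 44.2% of 1295 such regions in the genome, a share computed after the 6 had been seen. Angptl4 had no such merged region: all 5 of its day 6 merged regions also held a DHS peak of day 0. Within the chained region chr17:33915639-33918668, however, the day 6 DHS peak at chr17:33918149-33918614 overlapped no DHS peak of day 0 or 4 hours. It overlapped no PPARgamma peak either. At equal list length by width, 2 regions were gained by 4 hours and 1 was absent on day 6 again. With peaks at or above the median width only, these counts were 3 and 5.

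RNA Pol II was listed in 10 regions on day 0 (18.2%, genome 17.5%) and 8 at 4 hours (14.5%, genome 14.8%). Of the 10, 8 also had it at 4 hours (80.0%, 44.4 to 97.5), against 55.4% in the genome, and no region had it at 4 hours alone. Of the 10 regions of day 0, Adipoq held 3, Lpl 2 and Angptl4 5, while Pck1 held none. The 2 regions with RNA Pol II on day 0 only were at Angptl4, chr17:33910290-33911020 (516 bp) and chr17:33954185-33954880 (494 bp), each with 1 DHS list beside it (day 2 and day 1). PPARgamma and RNA Pol II shared 3 merged regions, 2 at Lpl and 1 at Angptl4, and in the latter their peaks did not overlap each other. The median distance from a PPARgamma peak of day 6 to the nearest RNA Pol II peak was 4.00 kb at Angptl4, 18.99 kb at Adipoq, 19.63 kb at Lpl and 106.80 kb at Pck1.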

How the data were processed

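The data were 19 peak lists (6 DHS-seq, 13 ChIP-seq), 1 per library. The input control was not analysed here. Per the file headers, each deposited list is a browser track with chromosome, start and end in bp. The build is mm9, per the submitters' processing notes. The aligner, peak caller, threshold and read depth are not given in the sources used here. Peak width, merging and list length can each change the overlap counts, and not always in the same direction.

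Starts were converted to count from 1. Peaks touching a window were taken as members, all 19 lists were merged by at least 1 bp, and each region was scored per list. Tiles of window length ran from position 1 to the last peak of each chromosome, counted peaks by their middle and left out tiles touching the window. Merging was tested on simulated data and against bedtools. Intervals came from SciPy 1.17.1 and figures from Matplotlib 3.10.9, under Python 3.11.15.

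The members, and the rule for named regions, were chosen with earlier results of these data known. The rule took, per window, up to 10 regions with PPARgamma, with 3 or more factors of 4 hours, in 5 or more DHS lists or with both RNA Pol II lists. Other regions singled out were chosen after their values were seen. Alternatives changed overlap, merging distance, peak width, list length and window edges.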

Additional observations from a re-analysis of the deposited data

How the results depend on the processing

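Of 72 alternative values, 46 stayed within 1.5 times the reported count and 26 moved beyond it. Requiring an overlap of 50% of the shorter peak, or merging peaks up to 500 bp apart, moved none beyond it. With every peak set to 200 bp, Adipoq had 28 merged regions (the cause was not tested). Keeping only peaks at or above the median width of their list leaves fewer peaks: 36 at Adipoq, 65 at Lpl and 39 at Angptl4, in 13 merged regions at Lpl and 8 at Angptl4. It left 3 regions opened by 4 hours, 5 open at 4 hours and not on day 6, 2 C/EBPbeta regions open at 4 hours, 16 PPARgamma regions and 3 of these with an earlier C/EBPbeta peak. Lists cut to equal length by width (9055 DHS and 2076 ChIP peaks) likewise held fewer: 27 peaks at Adipoq, 38 at Lpl and 32 at Angptl4, with 7 merged regions at Lpl and 8 at Angptl4. They gave 2 regions opened by 4 hours, 1 open at 4 hours and not on day 6, 1 C/EBPbeta region open at 4 hours, 1 region with 3 or more factors, 13 PPARgamma regions and 2 with an earlier C/EBPbeta peak. Windows shortened by 20 kb on both sides cover less and held 38 peaks in 9 regions at Adipoq, 5 regions open at 4 hours and not on day 6, and 5 C/EBPbeta regions open at 4 hours. No paired analysis was possible because each group has 1 library. The depth of the libraries is unknown, so a missing peak does not show that a site was closed or unbound.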
